A study of Mus musculus with 8 samples.

Results

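The genes that make, bind, sense and destroy retinoic acid were described here in cultured palatal mesenchyme of mouse embryos that lack the TGF-beta type II receptor gene Tgfbr2 in the neural crest. The list holds 9 genes, chosen by name for their roles in this pathway: the receptors Rara, Rarb and Rarg, the synthesis enzymes Aldh1a1, Aldh1a2 and Aldh1a3, the binding proteins Crabp1 and Crabp2, and the degrading enzyme Cyp26b1. All 9 were found among the 18193 genes measured, each through its brightest probe set by mean log2 intensity. Mutant cells carried Tgfbr2 fl/fl with Wnt1-Cre, a Cre driven in the neural crest, and control cells carried Tgfbr2 fl/fl without Cre, although the sample titles call them wild type. All embryos were of the C57BL/6J strain and taken at embryonic day 13.5, and their palatal mesenchyme was cultured for 2 passages. Each genotype had 4 Affymetrix arrays. Separate embryos per array are not stated in the labels, and the p-values therefore reflect only how far these samples scatter, some of which may be technical. Cells outside the Wnt1-Cre lineage, such as macrophages, keep the floxed gene.

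Retinoic acid is made from vitamin A in stages: retinol is oxidised to retinal by retinol dehydrogenases, and retinal to retinoic acid by the Aldh1a enzymes. In the cell it is carried by Crabp1 and Crabp2. In the nucleus it binds the retinoic acid receptors, which sit on DNA as heterodimers with retinoid X receptors, and the Cyp26 enzymes clear it. The palate is sensitive to its level, since an excess of retinoic acid cleaves the palate of mouse embryos and loss of Cyp26b1 does so too.

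None of the 9 genes passed the test between genotypes in limma with Benjamini-Hochberg adjustment over all genes, where 16 genes, 0.0879% of those tested, passed at adjusted p = 0.05 (0.0660% lower and 0.0220% higher in mutants). Nor did any of their further probe sets pass when all 45037 probe sets were tested, of which 0.00222% passed. At an unadjusted p of 0.05, 1 of the 9 passed (Crabp2), against 15.5% of all genes, and the exact permutation test over arrays passed none (smallest p = 0.143, for Crabp2). The arrays of the genotypes did not separate completely for any member, while they did for 8.07% of all genes. The median log2 difference over the 9 genes, mutant minus control, was -0.08, and over all genes it was -0.01. Of the members 6 read lower and 3 higher in mutants by the sign of the difference alone, and 51.7% of all genes read lower. The widest differences were those of the binding protein genes Crabp1 and Crabp2, and both moved by over 0.3 when control 4 was left out.

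Crabp2, which carries retinoic acid to the nucleus and hands it to the receptors, had the smallest p of the members. Its log2 intensity (probe set 1451191_at) was 10.91, 11.14, 11.20 and 11.02 on mutant arrays 1 to 4 and 12.24, 12.19, 12.19 and 10.76 on control arrays 1 to 4. Controls 1, 2 and 3 lay close together and above every mutant array, and control 4 lay below every mutant array. The means were 11.07 ± 0.13 in mutants and 11.85 ± 0.72 in controls (SD, n = 4 each). Mutants thus read 1.71-fold lower (log2 difference -0.78, SE 0.32, 95% interval -1.50 to -0.05), without passing in limma (adjusted p = 0.297). Without control 4 the mutant level was 2.20-fold lower, with a difference of -1.14 (SE 0.09) and adjusted p = 0.0111 in limma, the fifth smallest p of all genes. That fit passed 31 genes, 0.170% of those tested, and 1 of the 9 members. Control 4 stands out by its Crabp2 value itself, and without it the control SD was 0.03. The small p and its rank therefore follow from which array was left out, and the labels give no reason to leave it out. Leaving out any other single array gave -0.64 to -0.82, and Crabp2 did not pass.

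Crabp1, the second cellular carrier, which holds retinoic acid in the cytoplasm and is strongly expressed in neural crest mesenchyme, behaved alike in the controls. Its log2 intensity (probe set 1448326_a_at) was 11.95, 12.87, 11.97 and 13.00 on mutant arrays 1 to 4 and 13.55, 13.55, 13.70 and 11.85 on control arrays 1 to 4. Again controls 1 to 3 lay above every mutant array and control 4 below them all, but here the mutant arrays themselves spread from 11.95 to 13.00, with mutants 2 and 4 high and mutants 1 and 3 low. The means were 12.45 ± 0.57 in mutants and 13.16 ± 0.88 in controls (SD, n = 4 each), a difference of -0.71 (SE 0.45, 95% interval -1.74 to 0.31) with adjusted p = 0.479 in limma. Without control 4 the difference was -1.15 (SE 0.29, 95% interval -1.82 to -0.48), still with adjusted p = 0.208 in limma. Crabp1 and Crabp2 were the only 2 of the 9 members whose genotypes separated completely on the remaining 7 arrays, as 14.0% of all genes did. For these 2 genes that only restates that controls 1 to 3 lay above every mutant array.

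**Figure D1:**
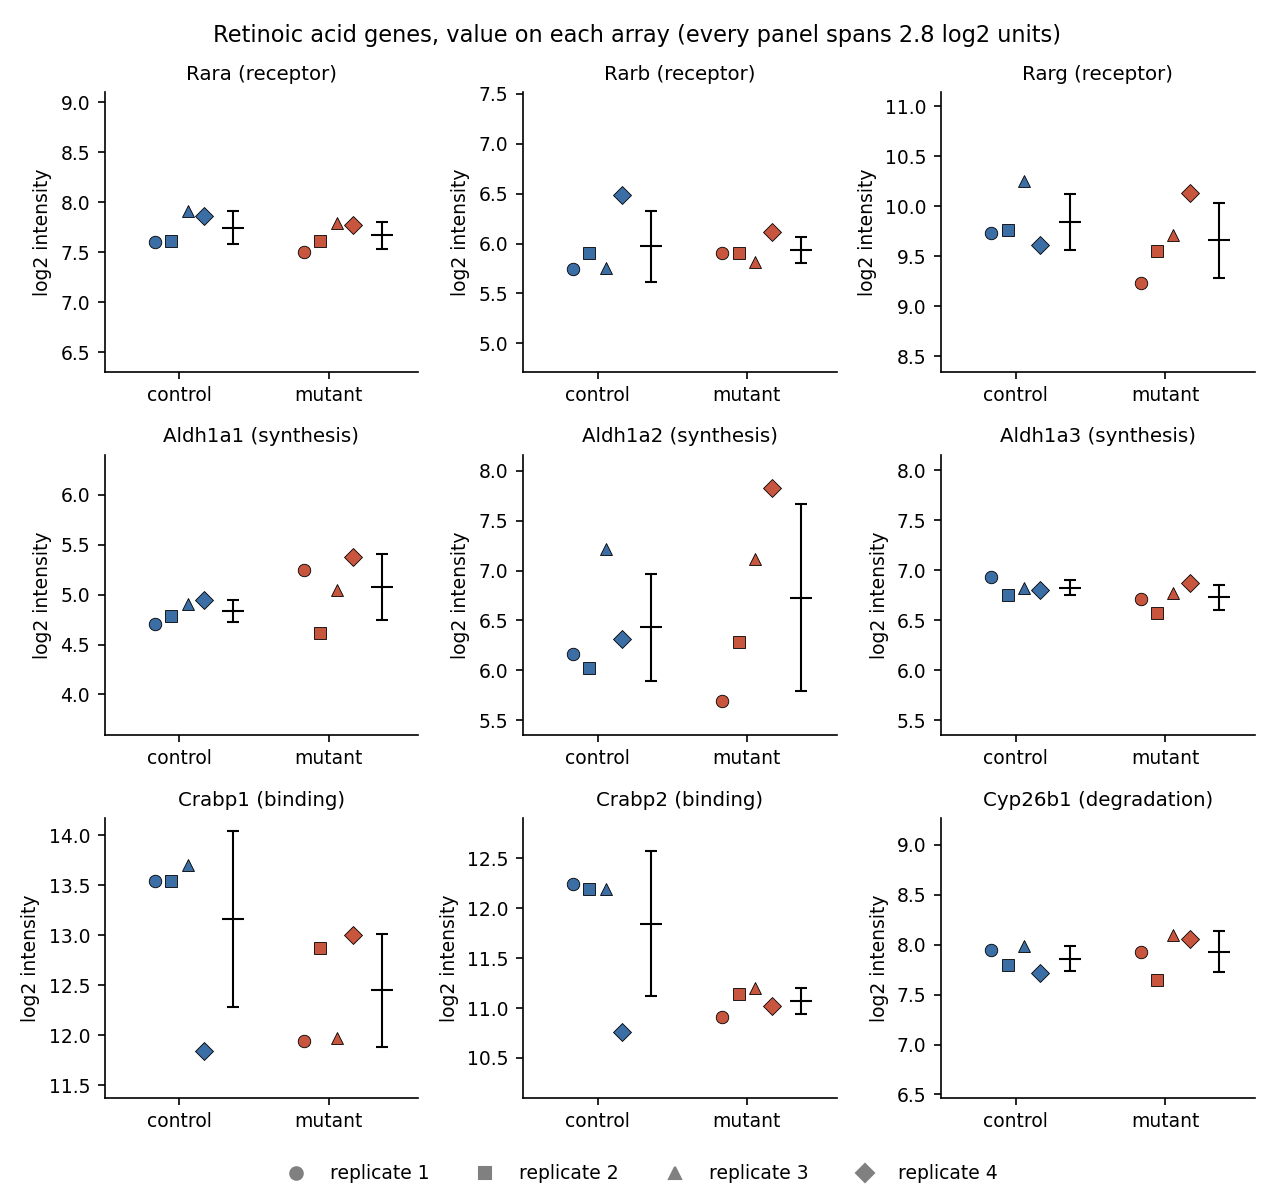
Log2 intensity of the 9 genes on each of the 8 arrays, 1 panel per gene, with control arrays in blue and mutant arrays in red, symbols for the replicate number and black bars for the mean ± SD (n = 4). For Crabp2, controls 1 to 3 sit between 12.19 and 12.24, above all mutant arrays (10.91 to 11.20), while control 4 sits at 10.76; the genotypes overlap in every panel.

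Control 4 also stood apart in Pdgfra, a growth factor receptor of mesenchyme, which read 10.10 there and 12.23 to 12.98 on the other 7 arrays. Between genotypes Pdgfra had the opposite sign to Crabp1 and Crabp2, at 0.92 (SE 0.52, adjusted p = 0.427 in limma). That was the highest difference among the 10 mesenchyme markers, of which 8 read lower and 2 higher in mutants (median -0.22). At an unadjusted p of 0.05 in limma 2 were lower, against 9.69% of all genes, and 0 passed after adjustment. All 10 mesenchyme markers were above the median of all probe sets (6.93) on all 8 arrays. Their mean was 13.18, 13.11, 13.23 and 12.78 in controls 1 to 4 and 12.70, 12.99, 12.77 and 13.32 in mutants 1 to 4. Control 4 was thus the lowest control, and mutants 2 and 4 read above mutants 1 and 3, as for Crabp1. Whether the Crabp1 difference follows these markers was not tested. Neuronal and glial markers (7 measured, 4 of them above that median on all arrays) averaged 7.98 in control 4, 7.39 to 7.93 in the other controls and 6.86 to 7.44 in mutants, and the neuronal gene Stmn2 reached 12.21 in control 4 against 8.51 to 10.94 elsewhere. Gap43, a growth cone gene of the same list, did not stand out in control 4 (10.06, with the other controls at 9.95 to 10.90). It had the list's largest difference (-1.87, SE 0.55, adjusted p = 0.200 in limma), with mutants 1 to 3 at 7.54 to 8.17 and mutant 4 at 10.19. Their part in the result was not tested. In bulk cultures, fewer cells of a type and less RNA per cell cannot be told apart. Macrophage and leukocyte markers (20 of 21 above the median on all arrays) averaged 13.19, 13.19, 13.23 and 11.11 in mutants 1 to 4 and 12.39, 12.60, 11.22 and 11.02 in controls 1 to 4. All 21 read higher in mutants by sign (median difference 0.81), so their level and genotype ran together. In limma 0 of them passed, and 6 were higher at an unadjusted p of 0.05, against 5.84% of all genes. On the 3 arrays low in these markers Crabp2 was 12.19 in control 3, 10.76 in control 4 and 11.02 in mutant 4, so the mutant lay between the controls. That order rests on control 4. On the arrays higher in these markers Crabp2 was 12.24 and 12.19 in controls 1 and 2 and 10.91, 11.14 and 11.20 in mutants 1 to 3. With the marker mean as a covariate the Crabp2 difference was -0.99 (adjusted p = 0.206 in limma). Of epithelial, endothelial, muscle and erythroid markers, 3 of 14, 3 of 12, 5 of 11 and 0 of 5 were above the median on all arrays. The epithelial mean was 6.75 in control 4 and 6.46 to 6.58 on the other arrays.

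Technical groups of arrays were read from the control probe sets, since the labels name none. Arrays 1 and 2 of each genotype had bioB hybridisation controls between 6.34 and 6.52, and arrays 3 and 4 between 8.24 and 8.79. Within the first of these batches Crabp2 differed by -1.19 and Crabp1 by -1.14, and both passed there (adjusted p = 0.00347 and 0.0479 in limma, 2 arrays against 2, where 2085 genes passed). In the second batch, which holds control 4, they differed by -0.36 and -0.29 and did not pass. With the batch as a block the differences were as in the whole set, with adjusted p = 0.205 for Crabp2 and 0.394 for Crabp1 in limma.

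**Figure D2:**
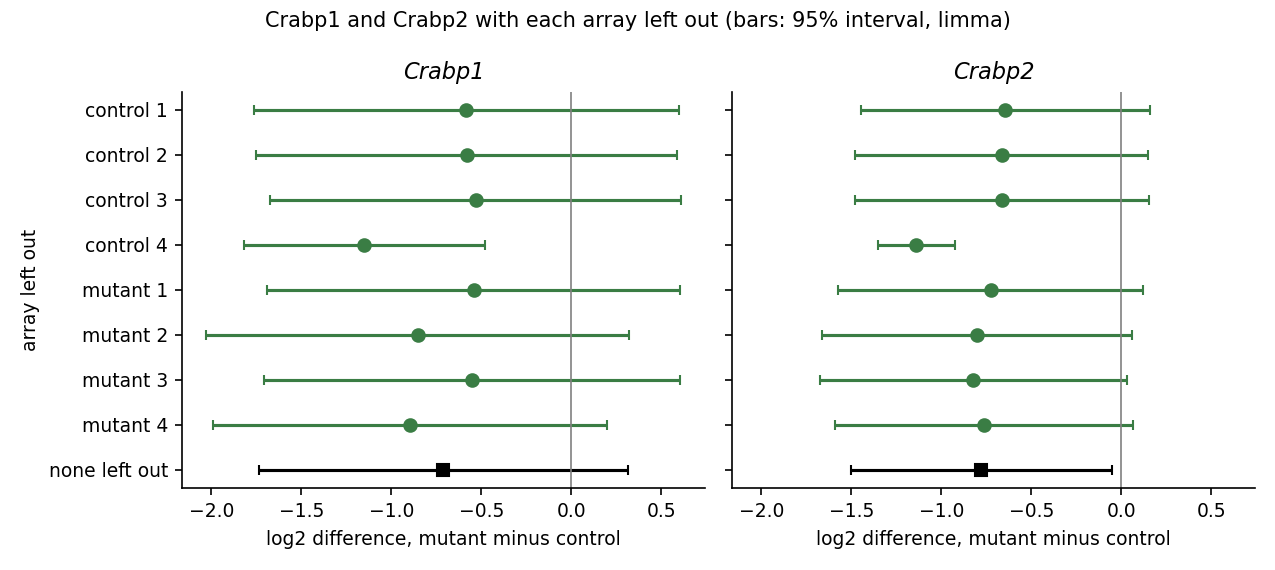
Log2 difference of Crabp1 and Crabp2, mutant minus control, with all arrays (black square) and with each array left out (green points); bars are 95% intervals from limma. Without control 4 the Crabp2 difference is -1.14 with the narrowest interval, and the other 7 points lie between -0.82 and -0.64.

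Genes whose levels ran most like those of the binding proteins were sought over the 8 arrays by Pearson correlation, given as a description with no p, among 8916 genes brighter than the median gene (8.17). For Crabp2 they were Cfap20, a ciliary gene (r = 0.983), Rspo3, a secreted amplifier of WNT signals (r = 0.980), and Rtl3 (r = 0.979). Rspo3 read 9.20, 9.40, 9.20 and 9.39 in mutants 1 to 4 and 11.51, 11.47, 10.94 and 8.61 in controls 1 to 4, the same high, low and lowest order of groups as Crabp2. Rtl3 read 8.40 to 9.36 in mutants, 10.73 to 10.84 in controls 1 to 3 and 8.19 in control 4. All 3 rest on the same separation of controls 1 to 3 from the other 5 arrays. For Crabp1 the nearest were Hnrnph3 (r = 0.980), Zfp46 (r = 0.973) and B3gnt9 (r = 0.971), each lower in control 4 than in the other controls. None of these 6 genes passed between genotypes (adjusted p from 0.279 to 0.378 in limma).

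**Figure D3:**
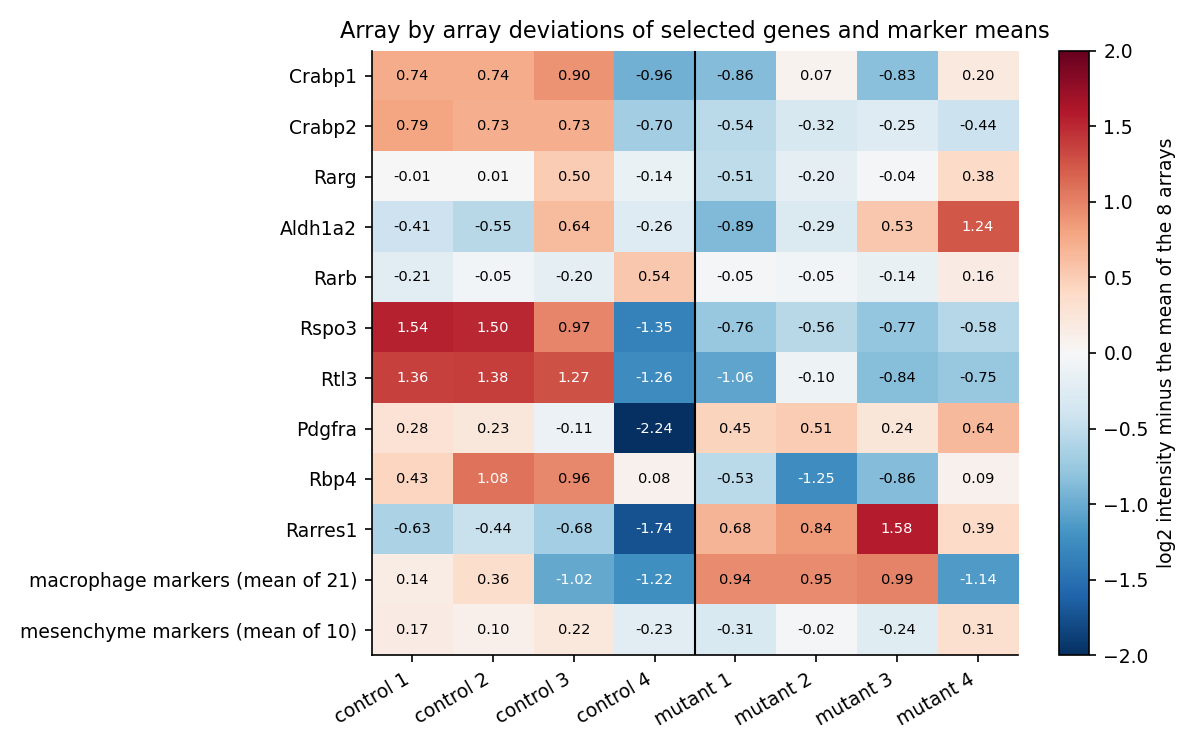
Log2 intensity minus the mean of the 8 arrays for 5 of the retinoic acid genes, 5 other genes and 2 marker means, with arrays in columns; red is above and blue below each row's own mean. Crabp1, Crabp2, Rspo3 and Rtl3 are high in controls 1 to 3 and low in control 4, and Pdgfra in control 4 is at -2.24.

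No receptor gene passed between genotypes. Rarg, a receptor prominent in skeletal progenitors, read 9.24, 9.55, 9.71 and 10.13 in mutants 1 to 4 and 9.74, 9.76, 10.25 and 9.61 in controls 1 to 4 (probe set 1419415_a_at). The highest value was in control 3 and the lowest in mutant 1, and the groups overlapped. The means were 9.66 ± 0.37 in mutants and 9.84 ± 0.28 in controls (SD, n = 4 each), a difference of -0.18 (95% interval -0.66 to 0.29) with adjusted p = 0.706 in limma. A second, dimmer probe set of Rarg (1419416_a_at) gave 6.80 ± 0.41 and 6.80 ± 0.13 (SD, n = 4 each), and it too was lowest in mutant 1, but its highest value was in mutant 4. With 1 array left out the Rarg difference ran from -0.34 (without mutant 4) to -0.04 (without mutant 1). Genes most like Rarg over the 8 arrays were Tns2 (r = 0.988), Yif1b (r = 0.987) and Setd5 (r = 0.986).

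Rara, the broadly expressed receptor, read 7.50, 7.61, 7.79 and 7.77 in mutants 1 to 4 and 7.60, 7.61, 7.91 and 7.86 in controls 1 to 4 (probe set 1450180_a_at). In both genotypes replicates 3 and 4, the arrays with high bioB controls, read above replicates 1 and 2. The difference between genotypes was -0.08 (SE 0.11, 95% interval -0.32 to 0.17), with adjusted p = 0.770 in limma.

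Rarb is itself switched on by retinoic acid through a response element next to its start site, which makes it a gauge of the signal. The element is a direct repeat of a receptor half-site with 5 bases between (DR5). The sequence is shown because of that role, with the repeat in capitals, from RefSeq promoters of GRCm38.p6 and written 5′ to 3′ on the gene's strand, where it covers the 100 bases before the start site at chr14:16575477-16575576 on the minus strand. Cyp26a1, a Cyp26 enzyme that retinoic acid also induces, has a repeat in the matching window at chr19:37697708-37697807 on the plus strand, there on the opposite strand.
Rarb: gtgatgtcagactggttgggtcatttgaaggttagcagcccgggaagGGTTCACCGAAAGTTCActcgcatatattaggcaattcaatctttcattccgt
Cyp26a1: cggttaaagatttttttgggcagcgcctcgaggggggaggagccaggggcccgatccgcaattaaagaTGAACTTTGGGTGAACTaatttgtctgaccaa
The half-sites searched were the classical AGGTCA together with a first variant, GGGTCA, a second variant, AGTTCA, and a further variant, GGTTCA, in any pair and on both strands, over windows of 250 bases before to 50 after each start site. A DR5 was found in 32 of 32851 such windows, 0.0974%, and a spacing of 1 or 2 bases (DR1, DR2) in 0.222% and 0.268%. Of the 9 members 7 had windows in the table, 12 in all (Crabp2 and Aldh1a3 had none), and the Rarb repeat was the only match of any of the 3 spacings among them. Among 50 other pathway genes, 38 with 52 windows, the matches were the DR5 of Cyp26a1 and a DR1 of Bco1. A match describes letters only and says nothing of binding in these cells.

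Neither gene with the DR5 passed between genotypes. Rarb read 5.91, 5.91, 5.81 and 6.12 in mutants 1 to 4 and 5.74, 5.90, 5.75 and 6.49 in controls 1 to 4 (probe set 1454906_at). The highest value belonged to control 4, the array lowest in Crabp1 and Crabp2, and the other 7 lay within 5.74 to 6.12. The difference was -0.04 (SE 0.17, 95% interval -0.42 to 0.35), with adjusted p = 0.941 in limma, and 0.14 without control 4. All 8 values were below the median of all probe sets, so the signal was dim. Cyp26a1 was as dim, at 6.05 ± 0.11 in mutants and 5.87 ± 0.10 in controls (SD, n = 4 each), with a difference of 0.18 (SE 0.09) and adjusted p = 0.352 in limma.

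Of the enzymes that make retinoic acid, Aldh1a2, the main one of embryonic mesenchyme, varied most of all 9 genes across the arrays. It read 5.69, 6.29, 7.11 and 7.82 in mutants 1 to 4 and 6.17, 6.03, 7.22 and 6.32 in controls 1 to 4 (probe set 1422789_at). Mutants 3 and 4 and control 3 were high, the other 5 arrays were low, and the controls, at 6.03 to 7.22, lay inside the range of the mutants. The means were 6.73 ± 0.93 in mutants and 6.43 ± 0.54 in controls (SD, n = 4 each), a difference of 0.30 (SE 0.46, 95% interval -0.76 to 1.35) with adjusted p = 0.794 in limma. The same 3 arrays were those low in the poly-A labelling controls (6.57 to 7.27 there, 8.14 to 8.73 on the other 5). These 3 did not overlap the other 5 for 9.71% of all genes and for 2 of the 9 members, Aldh1a2 and Cyp26b1. With this labelling group as a block the Aldh1a2 difference was -0.03 (adjusted p = 0.962 in limma), with the macrophage mean as a covariate 0.82 (adjusted p = 0.301), and without mutant 4 -0.07.

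Aldh1a1 and Aldh1a3, the other enzymes of that step, were dim. Aldh1a1 read 5.25, 4.62, 5.05 and 5.38 in mutants 1 to 4 and 4.70, 4.78, 4.90 and 4.95 in controls 1 to 4 (probe set 1416468_at), with 3 mutant arrays above all controls and mutant 2 below them. Aldh1a1 differed by 0.24 (SE 0.16) and did not pass in limma (adjusted p = 0.503). Without mutant 2 it differed by 0.39 (95% interval 0.14 to 0.65, adjusted p = 0.281 in limma), and without mutant 4 by 0.14. Aldh1a3 read 6.57 to 6.87 in mutants and 6.75 to 6.94 in controls (probe set 1427395_a_at), a difference of -0.10 (SE 0.09) with adjusted p = 0.618 in limma. Its other 2 probe sets differed by 0.00066 and -0.06. Aldh1a1 was below the median of all probe sets on all 8 arrays, and Aldh1a3 on 7 of 8.

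Cyp26b1, which clears retinoic acid and shields the palate from it, was the steadiest of the brighter members beside Rara. It read 7.92, 7.64, 8.09 and 8.05 in mutants 1 to 4 and 7.95, 7.79, 7.98 and 7.72 in controls 1 to 4 (probe set 1460011_at). The 3 highest arrays were mutants 3 and 4 and control 3, as for Aldh1a2, although all values lay within 0.45 log2 units. The difference was 0.07 (SE 0.12, 95% interval -0.20 to 0.34), with adjusted p = 0.815 in limma.

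**Figure D4:**
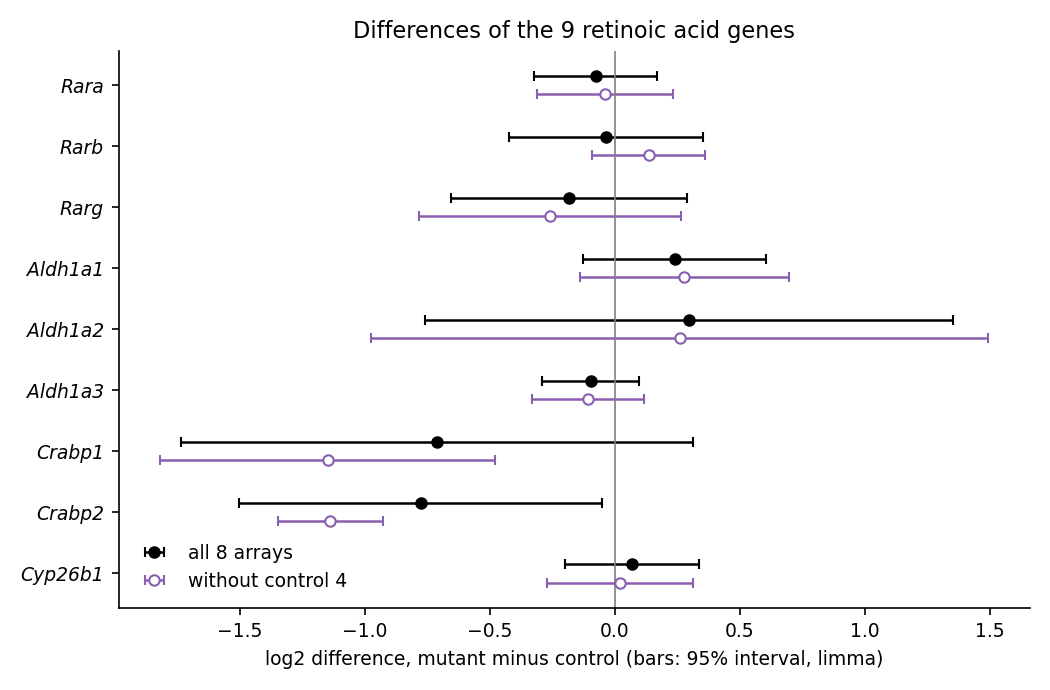
Log2 difference of each of the 9 genes, mutant minus control, with all 8 arrays (filled) and without control 4 (open); bars are 95% intervals from limma. The Crabp1 and Crabp2 points move from -0.71 and -0.78 to -1.15 and -1.14, and the Rarb point changes sign, from -0.04 to 0.14.

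Around these 9 genes, 50 others of retinoid handling and response were listed by role, and 44 were measured. In limma 1 of the 44 passed over all genes (Meis1, lower), against 0.0879% of all genes. At an unadjusted p of 0.05, 4 were lower and 5 higher, against 9.69% and 5.84% of all genes. Genotypes separated completely for 5 of them, against 8.07% of all genes. Without control 4, Meis1 alone passed as well.

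Retinol uptake, binding and storage held 7 measured genes (median difference -0.03), of which 0 passed in limma. At an unadjusted p of 0.05, 1 was lower, against 9.69% of all genes. Rbp4, the secreted retinol carrier, read 7.26, 6.55, 6.93 and 7.88 in mutants 1 to 4 and 8.22, 8.88, 8.75 and 7.88 in controls 1 to 4. Mutant 4 and control 4 met at the same level, and the other arrays separated by genotype. Its difference was -1.28 (SE 0.32, adjusted p = 0.187 in limma), and without mutant 4 it was -1.52 and passed (adjusted p = 0.0247), in a fit that passed 1316 genes. The retinol receptor gene Stra6 and the storage enzyme gene Lrat differed by -0.03 and -0.01.

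Enzymes that interconvert retinol and retinal numbered 15 measured (median -0.03), with 0 past the limma test. At an unadjusted p of 0.05, 2 were lower and 1 higher, against 9.69% and 5.84% of all genes. Dhrs3, which reduces retinal back to retinol and is induced by retinoic acid, read 10.65, 10.64, 11.18 and 10.24 in mutants 1 to 4 and 10.41, 10.42, 9.98 and 9.82 in controls 1 to 4. Only mutant 4 overlapped the controls, and the difference was 0.52 (SE 0.22, adjusted p = 0.304 in limma). Rdh10, the dehydrogenase that supplies most retinal in the embryo, differed by 0.36 (SE 0.22, adjusted p = 0.455). The broad alcohol dehydrogenase gene Adh5 and the mitochondrial reductase gene Rdh13 differed by -0.27 (SE 0.07, adjusted p = 0.187) and -0.46 (SE 0.12, adjusted p = 0.190), and for both all mutant arrays lay below all controls.

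No gene of the receptors' partners passed. The retinoid X receptors and the Fabp5 to Ppard route, by which retinoic acid can reach a different nuclear receptor, held 5 genes. Of these 0 passed in limma and 0 had an unadjusted p under 0.05, against 15.5% of all genes. Rxrb differed by 0.12 (SE 0.07), Rxrg by 0.09 (SE 0.10) and Ppard by -0.25 (SE 0.20). Of 7 coregulators (median 0.34) 0 passed and 2 were higher at an unadjusted p of 0.05, against 5.84% of all genes. These 2 were the coactivator genes Ncoa2 (0.41, SE 0.16, adjusted p = 0.289 in limma) and Ncoa3 (0.78, SE 0.32, adjusted p = 0.300). Ncoa3 read 9.78, 9.75 and 9.79 in mutants 1 to 3 and 8.45 in mutant 4, against 8.20 to 8.98 in controls. Mutants 1 to 3 were also the 3 arrays highest in the macrophage markers, whose part in this difference was not tested. Without mutant 4 Ncoa3 differed by 1.11 and passed (adjusted p = 0.0209 in limma), in the fit that passed 1316 genes.

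Of the genes that retinoic acid is known to induce, 14 were measured (median 0.00, lowest -1.04, highest 1.75), and 7 read higher and 7 lower. At an unadjusted p of 0.05, 3 were higher (Rarres1, Dhrs3 and Rarres2) and 1 lower (Meis1), against 5.84% and 9.69% of all genes. The mean over the list was 8.22 to 8.28 on mutant arrays and 8.06 to 8.17 on control arrays, without overlap. A mean over 14 genes can be moved by 1 of them, and Rarres1 differed by 1.75 while the median was 0.00. The separation of the means therefore does not describe the list as a whole, and the mean without Rarres1 was not computed. Meis1, a homeobox gene of limb and hindbrain patterning, fell by 1.04 (SE 0.10, adjusted p = 0.0284 in limma), from 8.94 ± 0.12 in controls to 7.90 ± 0.15 in mutants (SD, n = 4 each). It passed in 2 of the 8 fits that leave out an array, without mutant 4 (1316 genes passed) and without control 4 (31 genes passed). Its difference ran from -1.10 to -0.98 over all 8. Rarres1, a membrane protein gene named for its response to retinoids, read 10.83, 10.99, 11.72 and 10.53 in mutants 1 to 4 and 9.51, 9.70, 9.47 and 8.40 in controls 1 to 4. Every mutant array lay above every control, by 1.75 on average (SE 0.33), and Rarres1 did not pass in limma (adjusted p = 0.142). It passed without mutant 4 alone (adjusted p = 0.0254 in limma), in the same fit that passed 1316 genes. Rarres2, the adipokine chemerin, differed by 0.33 (SE 0.14, adjusted p = 0.314).

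**Figure D5:**
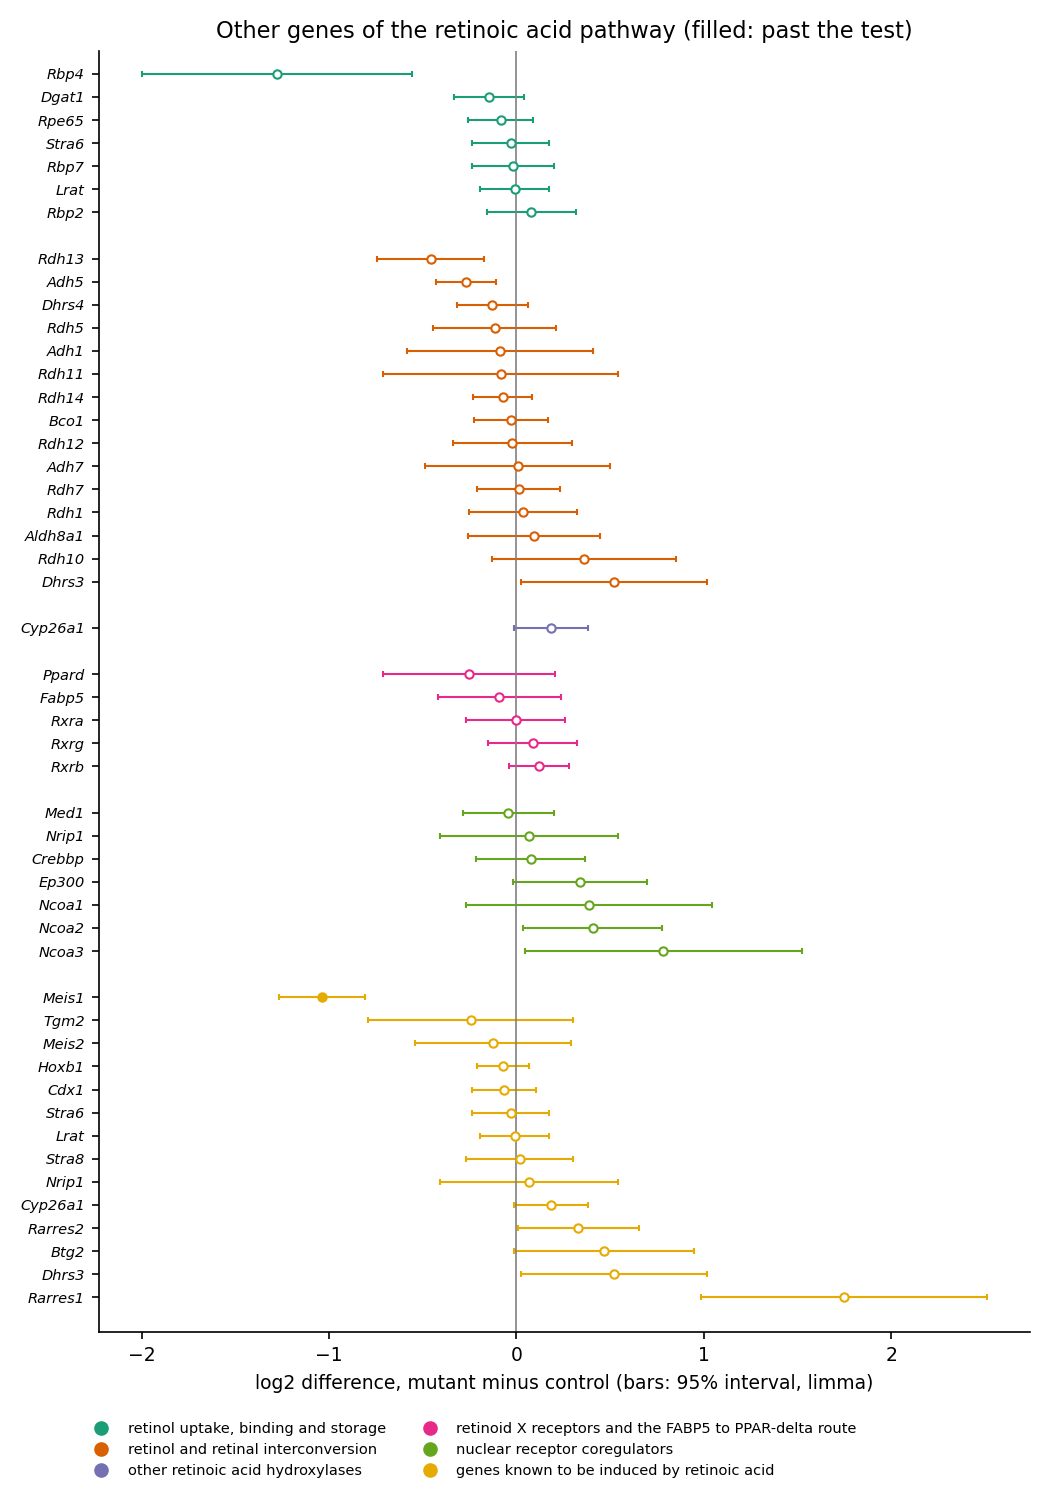
Log2 difference, mutant minus control, of the 44 other measured pathway genes by list, some of which stand on more than 1 list; points are limma estimates, bars 95% intervals and filled points passed the test. Meis1 (-1.04) is filled, and Rarres1 (1.75) and Rbp4 (-1.28) lie farthest from zero.

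The genotype labels could not be checked with Tgfbr2 itself, whose brightest probe set read 12.42 ± 0.47 in mutants and 12.04 ± 0.40 in controls (SD, n = 4 each, adjusted p = 0.538 in limma); the position of its probes relative to the deleted part is not stated in the labels, so it checks nothing. Array medians lay between 6.90 and 6.96 and correlations between arrays between 0.971 and 0.997.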

How the data were processed

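The authors deposited a table of log2 intensities per probe set, summarised with RMA per the submitters' processing notes (RMA version: not stated). The 8 columns were matched to samples by accession and grouped by title. Of 45101 probe sets 34945 had 1 gene symbol, of which 34741 were updated by Entrez identifier through RefSeq names (GRCm38.p6). No member shared a probe set with another gene. The brightest probe set stood for each of 18193 genes. Genotypes were compared with limma 3.58.1 in R 4.3.3 (lmFit, eBayes, no covariate, two-sided, Benjamini-Hochberg over all genes, threshold 0.05); SE and 95% intervals are limma's. Exact permutation over 4 against 4 arrays cannot go below p = 0.0286. The procedure was also run on simulated data with independent noise for each gene and array. Those data held no batch and no deviating array, so they cannot show how the procedure handles such arrays here. The members, the 13 lists, the array batches and the tests were chosen with earlier results of these data known. Text names all members, and from each pathway list the genes at an unadjusted p under 0.05 or else up to 3 with the smallest p; Rdh10, Stra6, Lrat, Stmn2 and Gap43 were added after their values were seen. The 4 arrays per group limit the precision. Alternatives covered scaling, probe set choice, dim genes, variance model, weights, batches and left-out arrays.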

Additional observations from a re-analysis of the deposited data

Results flagged for a closer look

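Of 76 groups of 4 arrays (38 genes given values above, in both genotypes), 12 held an array whose gap to its nearest neighbour was too large a share of the group's range by Dixon's 95% critical value, a limit that chance passes in about 1 group in 20. Control 4 was such an array for Crabp1 (11.85, the other controls 13.55 to 13.70) and Crabp2 (10.76, others 12.19 to 12.24), and for Pdgfra (10.10, others 12.23 to 12.62). It was so too for Hnrnph3 (9.76), Zfp46 (11.08), B3gnt9 (8.57), Cfap20 (10.85) and Rtl3 (8.19), which were picked for their likeness to Crabp1 or Crabp2 and add no independent instance. Over all 18193 genes control 4 stood apart in this way for 448 (2.46%), and as the lowest control for 236. Mutant 4 stood apart for Ncoa2 (9.74, the other mutants 10.18 to 10.27) and Ncoa3 (8.45, others 9.75 to 9.79), as it did for 788 of all genes (4.33%). Control 3 stood apart for Setd5 (10.59, others 10.09 to 10.13), and mutant 1 for Stmn2 (8.51, others 9.55 to 9.73).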

How the results depend on the processing

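Of 196 single-gene values under alternatives, 172 kept their sign and side of the threshold. Some settings cannot change a difference: the variance model, dim genes left out, the replicate and hybridisation blocks, and the probe set mean for genes with 1 probe set. The permutation test also keeps the difference and was judged on its own unadjusted p. The count of 172 therefore overstates how steady the values were. The count of 0 members became 1 with array weights (Crabp2) or at an unadjusted p of 0.05, and 2 (Crabp1 and Crabp2) in the low bioB batch or, chosen after seeing the data, with mutant 4 and control 4 both left out; with 1 array left out it ran from 0 to 1. Crabp1 and Crabp2 were lower in all 22 alternatives, but several of these return the main difference by design, and the others reuse the same arrays. The count of 16 genes was 1470 with weights, 2085 and 0 within the low and high bioB batches, 2 with the labelling block, 49 with the macrophage covariate, 1238 without both arrays numbered 4, 41 at an adjusted p of 0.10, 1 with every probe set tested and 0 to 1316 with 1 array left out. The median over the members ran from -0.18 to 0.02.

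Signs turned for small differences: Rarb was 0.042 with weights, 0.083 in the low bioB batch, 0.11 with the covariate, 0.076 without both arrays and -0.11 to 0.14 with 1 array left out. Aldh1a2 was -0.11 in the low bioB batch, -0.026 with the labelling block, -0.11 without both arrays and -0.068 to 0.64 with 1 array left out. Cyp26b1 was -0.0080 with weights, -0.087 in the low bioB batch and -0.021 without both arrays. Rara and Rarg were 0.021 and 0.012 with the covariate, Rarg 0.0011 and Aldh1a3 0.00066 on the second probe set, and Aldh1a3 0.011 in the high bioB batch. With 1 array left out Rara ran from -0.12 to -0.02, Aldh1a3 from -0.14 to -0.04 and Cyp26b1 from 0.01 to 0.16. The cause was not tested.

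Replicate numbers were not taken as pairs, because the labels do not say that they pair arrays. Same-numbered arrays correlated by 0.47, 0.42, -0.09 and 0.37 in their deviations, which does not settle the question. The array of the other genotype that correlated best had the same number for control 1 and control 4 only. With the replicate block 0 genes passed in limma, where 3828 had an unadjusted p under 0.05, and 0 members did (Crabp2 adjusted p = 0.197).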
